A study of Mus musculus with 17 samples.

Results

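The ADAM genes encode membrane proteins with a metalloprotease domain and a disintegrin domain. In the 2 expression tables every gene whose symbol was Adam followed by a number and at most 1 letter was taken as a member, which gave 33 genes of the 23974 with usable values in leptotene/zygotene (L/Z) spermatocytes and of the 23978 with usable values in newborn (P0) testes. The choice used symbols alone. From textbook knowledge, 21 members were set apart as genes of sperm and the male tract and 12 as genes expressed outside the male germ line. RNA was measured by polyA(+) RNA sequencing in 17 mouse libraries on a C57BL6/J background, to compare germ cells lacking Pld6, lacking Dnmt3L (called Dnmt3l below) or lacking both with wild type (WT). The L/Z cells were isolated by cell sorting 3 to 4 weeks after birth, with 2 libraries each of WT, Pld6 knockout (KO) and Dnmt3l KO. The P0 libraries were made from whole testes and comprised 2 WT, 4 Pld6 KO, 2 Dnmt3l KO and 3 double-knockout (DKO) libraries. Pld6 encodes an enzyme of PIWI-interacting RNA production and Dnmt3l a cofactor of DNA methylation. Both genes were missing from the whole animal, and in both single mutants germ cells are lost in late zygotene, so that WT testes at the age of the sort hold later germ cells and mutant testes do not. The labels call the libraries of a group biological replicates.

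ADAM proteins follow a common plan. A prodomain is removed during maturation, the metalloprotease domain can cut other membrane proteins close to the cell surface, and the disintegrin and cysteine-rich domains bind partners. Widely expressed members such as ADAM10 and ADAM17 release growth factors, cytokines, Notch and other receptors from the membrane, a step called shedding. Many other members are made in male germ cells, where several lack the catalytic residues and serve in a sperm surface complex that is needed for migration through the oviduct and for binding to the egg coat.

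The catalytic site can be read in the coding sequence, and it separates members described below. An active ADAM protease holds the zinc by the residues HExxHxxGxxH, in which the histidines bind the metal and the glutamate is catalytic. In the longest open reading frames of the annotated transcripts (GENCODE M21, build GRCm38), that motif was present in 9 of the 12 members expressed outside the male germ line and in 11 of the 21 sperm and male tract members. The members without it were Adam11, Adam22 and Adam23, which are brain cell-surface proteins, and Adam2, Adam3, Adam4, Adam5, Adam6a, Adam6b, Adam7, Adam18, Adam29 and Adam32. The coding bases of the motif are shown here 5′ to 3′ for the sheddases with the highest levels, for Adam1a, and for the corresponding stretch, aligned by protein to ADAM9, of Adam2 and of the sperm genes in the chromosome 8 run described next. Capitals mark the codons of the 3 histidines and the glutamate, or the codons aligned with them.
Adam9: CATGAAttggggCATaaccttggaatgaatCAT
Adam10: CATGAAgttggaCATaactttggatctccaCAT
Adam15: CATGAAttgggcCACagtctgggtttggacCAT
Adam17: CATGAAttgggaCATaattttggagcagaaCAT
Adam1a: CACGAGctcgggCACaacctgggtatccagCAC
Adam2: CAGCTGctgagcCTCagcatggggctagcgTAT
Adam3: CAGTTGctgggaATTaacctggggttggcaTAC
Adam5: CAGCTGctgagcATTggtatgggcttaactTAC
Adam18: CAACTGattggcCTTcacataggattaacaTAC
Adam32: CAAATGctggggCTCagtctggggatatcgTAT
None of the 4 residues was kept in the stretches of Adam2, Adam3, Adam5, Adam18 and Adam32. By contrast, Adam4, Adam7 and Adam29 each kept 3 of the 4.

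Position also grouped the members. They lay on 10 chromosomes, with 13 on chromosome 8 (RefSeq GRCm38.p6). There, Adam18, Adam3, Adam5, Adam32 and Adam9 followed each other without any other annotated gene between them, from 24602246 to 25017040, a span of 414795 bases, and all 5 were on the minus strand. Adam9 (24949611 to 25017040), a widely expressed sheddase, lay only 692 bases from Adam32 (24836143 to 24948918), and Adam5 (24727093 to 24824369) lay 715 bases from Adam3 (24677232 to 24726377). Adam18 (24602246 to 24674755) closed the run. Farther along the same chromosome were Adam24, Adam25, Adam20 and Adam39 (40675077 to 40826861), then Adam26b, Adam26a and Adam34 (43519864 to 43665560), and Adam29. Several of these are close copies, with a coding identity of 95.6% between Adam25 and Adam39 and 94.1% between Adam26a and Adam26b. Identity was 94.6% between Adam6a and Adam6b on chromosome 12 and 77.0% between the neighbours Adam1a and Adam1b on chromosome 5. Values of such copies are uncertain, because fragments that fit several genes were divided between them.

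Promoters differed between the classes as well. RefSeq promoters, here 250 bases before to 50 after the start of transcription, were given for 17 members. The 7 from outside the male germ line held 5 to 32 CG dinucleotides, the sites of DNA methylation, with a median of 25. The 10 of sperm and the male tract held 0 to 4, with a median of 1, against a median of 7 over all 27025 promoters. As examples, the promoters of the sheddase Adam17 (chr12:21373583-21373882, minus strand, 30 CG) and of the sperm gene Adam1a (chr5:121521646-121521945, minus strand, 4 CG) are given 5′ to 3′ with each CG in capitals.
Adam17: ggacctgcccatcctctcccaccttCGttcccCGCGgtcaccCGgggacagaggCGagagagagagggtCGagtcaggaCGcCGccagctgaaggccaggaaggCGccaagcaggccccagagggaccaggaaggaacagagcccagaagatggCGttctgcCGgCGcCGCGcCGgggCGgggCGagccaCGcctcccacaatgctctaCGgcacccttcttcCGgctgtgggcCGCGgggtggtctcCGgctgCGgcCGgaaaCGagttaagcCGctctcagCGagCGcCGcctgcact
Adam1a: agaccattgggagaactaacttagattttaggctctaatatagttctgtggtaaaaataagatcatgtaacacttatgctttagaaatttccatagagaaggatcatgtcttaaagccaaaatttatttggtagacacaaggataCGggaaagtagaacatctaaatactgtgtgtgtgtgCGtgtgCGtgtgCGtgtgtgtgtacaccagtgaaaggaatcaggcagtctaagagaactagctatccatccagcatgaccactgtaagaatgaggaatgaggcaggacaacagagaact
Adam2, Adam3, Adam5, Adam9, Adam18 and Adam32 had no entry. Searched on both strands, AACNGTC, the core letters bound by the meiotic factor MYBL1, was found in the promoters of Adam6a and Adam6b and in 8.085% of all promoters. TGACGTCA, the full cyclic AMP response element, was found in no member's promoter and in 1.876% of all. These matches describe letters only.

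**Figure D1:**
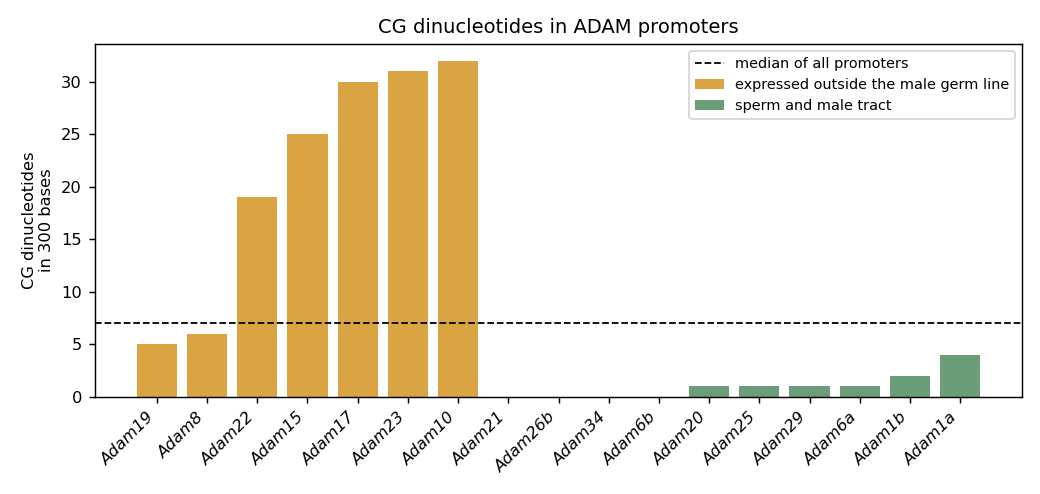
CG dinucleotides in the 300-base promoter of the 17 members with a RefSeq entry (bars, coloured by class), with the median of all promoters (7) as a dashed line. The sperm and male tract members had 0 to 4 and those expressed outside the male germ line 5 to 32.

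Total fragment counts were 5194238 to 14578341 per L/Z library and 9900346 to 23498968 per P0 library. In the L/Z table Pld6 had 344 and 352 counts in WT and 0 in both Pld6 KO libraries, and Dnmt3l had 19 and 11 counts in WT and 0 in both Dnmt3l KO libraries. At P0 the Pld6 KO and DKO libraries held at most 2 counts of Pld6 and the Dnmt3l KO and DKO libraries at most 3 of Dnmt3l. Summed markers of L/Z spermatocytes were 2184 to 8612 counts scaled to library size (CPM) in the sorted cells and 61.1 to 275 at P0. Spermatid markers summed to 4.91 to 7.73 CPM in the L/Z libraries. Of these markers, Prm2 and Smcp were at 0 in all 6 L/Z libraries, while Spaca1 had 15 to 50 counts. In the sorted cells, spermatogonia markers summed to 941 to 1906 CPM and Sertoli markers to 257 to 482 CPM. The first WT and the first Pld6 KO library at L/Z held 8.27% and 8.06% of the 45S pre-ribosomal RNA gene Rn45s, while the other L/Z libraries held at most 0.30%. At P0, Dnmt3l KO replicate 1 stood apart in its meiotic markers, as described with the sperm members.

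Levels of different members were compared as fragments per kilobase of transcript, scaled to library size (FPKM), which allow for transcript length. In WT L/Z spermatocytes the widely expressed members were the more abundant class: 7 of the 12 reached a mean of 1 FPKM, against 2 of the 21 sperm and male tract members. Adam15, a sheddase with an adhesive disintegrin domain, was the highest, with 35.6 and 38.7 FPKM. Adam10, the main Notch and cadherin sheddase, followed with 27.6 and 27.9 FPKM. Adam17, which sheds tumor necrosis factor and ligands of the EGF receptor, had 21.4 and 23.6 FPKM. Adam9 had 8.33 and 13.0 FPKM. Adam22, a catalytically inactive receptor of LGI proteins, had 8.03 and 7.95 FPKM. No neighbours in this order from Adam15 to Adam22 overlapped between their pairs of WT libraries. Adam11 and Adam23, which came next, did overlap, as did Adam8, Adam12, Adam19 and Adam33, all under 1 FPKM on average.

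Among sperm and male tract members in WT L/Z cells, Adam2 led with 2.05 and 8.10 FPKM. Adam2 encodes fertilin beta, which pairs with the ADAM1 proteins and is needed for the whole sperm ADAM complex. Adam5, a sperm surface member, had 1.22 and 2.04 FPKM. Adam32 had 0.676 and 0.8285 FPKM. Adam1a, which encodes the endoplasmic reticulum form of fertilin alpha, had 0.350 and 0.527 FPKM, and Adam1b, the sperm surface form, 0.409 and 0.284 FPKM. Their WT values overlapped, so that these copies could not be ranked. Adam3, the sperm ligand lost when fertilin assembly fails, was near the limit of detection with 2 and 11 counts, or 0.0673 and 0.371 FPKM. Of the 21, 12 had at most 3 counts in every L/Z library, and Adam24, Adam26b, Adam29, Adam34, Adam6a and Adam6b had no count in any. For a library of this table such a 0 allows up to 3 counts.

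At P0 the order was different. Adam10 was the highest in WT testes with 38.4 and 33.2 FPKM. Adam9 followed with 25.9 and 28.4 FPKM. Adam17 had 20.2 and 25.5 FPKM, and Adam12, a protease of mesenchyme and muscle precursors, 16.8 and 21.1 FPKM, and their pairs overlapped. Adam15 had 9.03 and 10.96 FPKM, Adam23 8.95 and 10.3 FPKM and Adam19 8.45 and 7.74 FPKM. Of the 21 sperm and male tract members, only Adam1a averaged over 1 FPKM in WT, with 1.505 and 0.796 FPKM. Adam5 had 0.587 and 0.671 FPKM, Adam1b 0.672 and 0.398, and Adam32 0.218 and 0.110. Adam24, Adam26b and Adam34 had no count in any of the 17 libraries. The tables were scaled separately and the samples differ in tissue, so levels are set side by side without a test. Adam12 stood at 18.9 ± 2.99 FPKM (SD, n = 2) at P0 and 0.576 ± 0.558 in L/Z cells, Adam19 at 8.10 ± 0.498 and 0.494 ± 0.321, Adam22 at 1.59 ± 0.577 and 7.99 ± 0.0578, and Adam15 at 9.99 ± 1.37 and 37.2 ± 2.24.

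**Figure D2:**
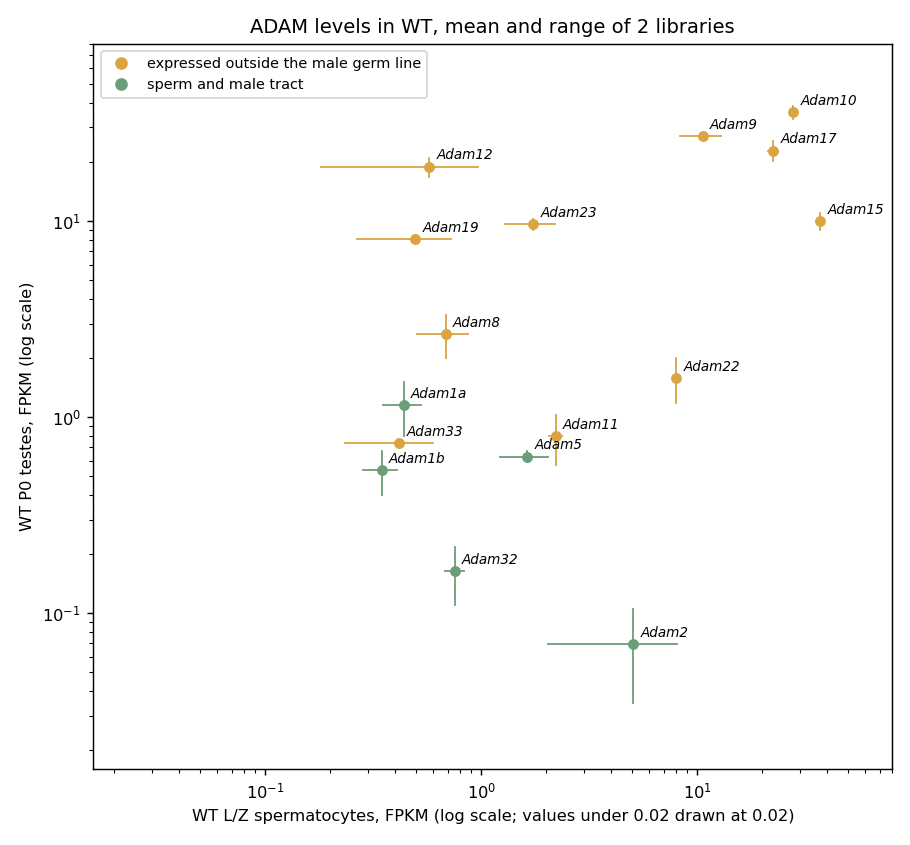
WT level of each member with a mean of at least 0.3 FPKM at either stage, in L/Z spermatocytes (x, log scale) and in P0 testes (y, log scale). Points are means and lines the range of the 2 libraries. Adam10 and Adam17 are high at both stages, Adam12 and Adam19 sit high on the P0 axis alone, and Adam2 and Adam22 lie toward the L/Z side.

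The first question was whether loss of Dnmt3l changed ADAM transcripts in L/Z spermatocytes. Adam9 rose and Adam5 fell in Dnmt3l KO cells, and these were the 2 members called of the 16 that passed the filter on low counts (edgeR quasi-likelihood test, Benjamini-Hochberg adjusted p, here FDR, under 0.05 and a change over 2-fold). In the same comparison 5.47% of the 14662 genes tested were called, 3.89% higher and 1.58% lower. At an unadjusted p under 0.05 there were 6 members, against 26.7% of all genes. The filter kept 11 of the 12 members from outside the male germ line, all but Adam28, and only Adam1a, Adam1b, Adam2, Adam5 and Adam32 of the other 21.

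Adam9 had 31.7 and 49.5 CPM in WT and 145 and 99.2 CPM in Dnmt3l KO, from 374, 582, 723 and 1386 counts. Both mutant libraries were above both WT libraries. The log2 fold change was 1.58 ± 0.28 (SE, FDR = 0.0129). It was 1.27 (FDR = 0.145) without Dnmt3l KO replicate 1 and 1.29 (FDR = 0.0643) without WT replicate 1, so the call depended on each of these libraries. Adam5 had 35 and 61 counts in WT (2.96 and 5.19 CPM) and 0 in both Dnmt3l KO libraries. Set against a floor of 3 counts in each mutant library, Adam5 was at least 10-fold lower (FDR = 0.00871 by edgeR). Without Dnmt3l KO replicate 1 the FDR was 0.0988, and DESeq2 gave no adjusted p.

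Of the other abundant sheddases, Adam17 and Adam10 were above both WT libraries in both Dnmt3l KO libraries, and Adam15 was below them. Adam17 had 91.3 and 99.9 CPM in WT and 225 and 144 CPM in Dnmt3l KO, without overlap. Its log2 fold change of 0.94 ± 0.24 (FDR = 0.0379) passed the FDR threshold but was under 2-fold, and the FDR was 0.121 with a correction for transcript length and GC content. Adam10 had 122 and 123 CPM in WT and 213 and 187 CPM in Dnmt3l KO, a log2 fold change of 0.71 ± 0.20 (FDR = 0.0537). With that correction the Adam10 value was 0.30 (FDR = 0.374). Adam15, the most abundant member, had 98.4 and 108 CPM in WT and 94.8 and 88.1 CPM in Dnmt3l KO, a log2 fold change of -0.18 ± 0.20 (FDR = 0.591), which was 0.21 (FDR = 0.549) with that correction. On the CPM scale Adam22 had 26.9 and 30.2 in WT and 26.4 and 25.9 in Dnmt3l KO. Adam11, a brain receptor without the catalytic motif, was at 11.3 and 10.2 CPM in WT and 5.80 and 3.22 CPM in Dnmt3l KO (log2 fold change -1.31 ± 0.40, FDR = 0.0692). It was called by DESeq2 (FDR = 0.0452) and by edgeR with no filter on low counts (FDR = 0.0475). With the length and GC correction its log2 fold change was -0.85 (FDR = 0.206), under 2-fold, and with a replicate left out -1.76 to -0.89. Adam12 and Adam19 averaged 4.32 and 3.05 CPM in WT and 1.92 and 1.69 CPM in Dnmt3l KO, and their libraries overlapped.

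Loss of Pld6 gave no called member at L/Z by edgeR, where 0.225% of all genes were called. At an unadjusted p under 0.05 there were 5 members, against 9.17% of all genes. DESeq2 called 1 member, Adam5. Adam5 had 1 and 3 counts in Pld6 KO (0.145 and 0.236 CPM), and its summed counts were 19.9-fold below WT with a counting interval of 7.53 to 74.6 at 95%. The edgeR FDR was 0.0747. With a factor for the 2 libraries rich in Rn45s it was 0.0160, so that the call turned on this choice. Adam2 had 4.83 and 19.1 CPM in WT and 1.16 and 3.47 CPM in Pld6 KO, where the WT libraries themselves were far apart. The log2 fold change of -2.30 ± 0.70 had an FDR of 0.348, and an FDR of 0.0363 with the same factor. Adam9 had 58.9 and 69.1 CPM in Pld6 KO, above both WT libraries, with a log2 fold change of 0.66 ± 0.27 (FDR = 0.508). Adam17 had 132 and 131 CPM and Adam10 162 and 170 CPM in Pld6 KO, with log2 fold changes of 0.46 ± 0.24 and 0.44 ± 0.20 (FDR = 0.578 and 0.538). Adam1a was at 1.02 and 1.53 CPM in WT and 3.93 and 3.31 CPM in Pld6 KO (log2 fold change 1.49 ± 0.57, FDR = 0.477). Both mutants were compared with the same 2 WT libraries, so the fold changes of a gene in the 2 comparisons are not independent.

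**Figure D3:**
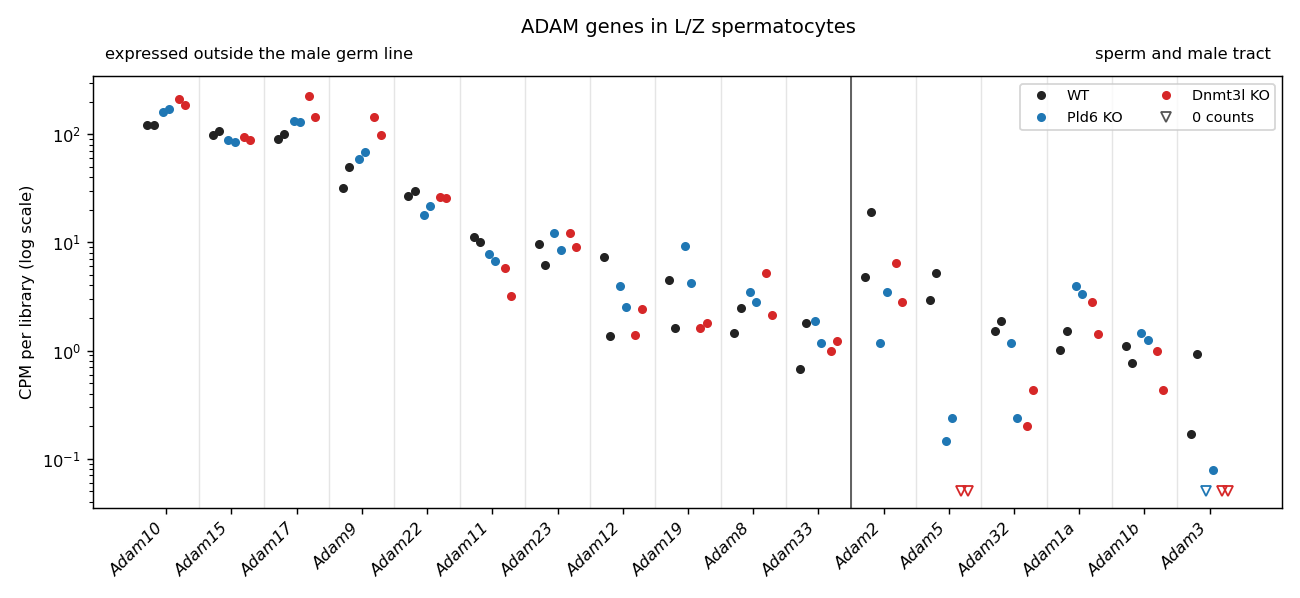
CPM (log scale) of the 16 members tested at L/Z, and of Adam3, in each library of WT (black), Pld6 KO (blue) and Dnmt3l KO (red). Open triangles at the bottom are libraries with 0 counts. Adam9, Adam10 and Adam17 are higher in both Dnmt3l KO libraries than in WT, and Adam5 has 35 and 61 counts in WT against 0 in Dnmt3l KO.

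The remaining sperm members had few counts at L/Z. Adam32 had 18 and 22 counts in the WT libraries, 8 and 3 counts with Pld6 deleted and 1 and 6 with Dnmt3l deleted, and neither mutant overlapped WT. Its log2 fold change in Dnmt3l KO was -2.23 ± 0.87 (FDR = 0.130). Adam2 had 6.40 and 2.79 CPM in Dnmt3l KO, overlapping the WT values, with a log2 fold change of -1.45 ± 0.68 (FDR = 0.197). It was called with the factor for Rn45s (-2.09, FDR = 0.0208), and the log2 fold change was -0.12 (FDR = 0.924) without WT replicate 2. Adam3 did not pass the filter. The WT libraries had 2 and 11 counts, the Pld6 KO libraries 0 and 1 and the Dnmt3l KO libraries 0, which at this depth gave a lower level by 10.8-fold with an interval of 1.62 to 458 in Pld6 KO and by at least 1.36-fold, against the same floor, in Dnmt3l KO. Adam1b ranged over 0.768 to 1.10 CPM in WT, 1.26 to 1.45 CPM without Pld6 and 0.428 to 0.999 CPM without Dnmt3l. Among members tested, the libraries of Dnmt3l KO and WT did not overlap for 8 of 16, and for 55.7% of all genes. For Pld6 KO and WT they did not overlap for 12 of 16, and for 42.8% of all genes. In sorted cells, fewer cells of a later type and less RNA per cell cannot be told apart. The 9 markers of pachytene and later germ cells summed to 143 and 278 CPM in the WT libraries, to 104 and 165 CPM in those of Pld6 KO, and to 197 and 168 CPM in those of Dnmt3l KO. Of these 9, Ldhc, Acr, Piwil1 and Spata16 were higher in both WT libraries than in all 4 mutant libraries, and the others were not. The same held for 3 of 8 Leydig markers and 3 of 10 spermatogonia markers. The share of all genes with this order was not computed. The L/Z markers summed to 2184 and 4271 CPM in the WT libraries, to 2631 and 4151 CPM in those of Pld6 KO, and to 8612 and 7279 CPM in those of Dnmt3l KO. Macrophage markers summed to 29.3 and 7.82 CPM in WT, 37.2 and 21.8 CPM in Pld6 KO, and 37.6 and 69.0 CPM in Dnmt3l KO. The part of these marker differences in the Adam values was not tested.

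In the direct comparison of the mutants, no member was called by edgeR, DESeq2 or limma, and 0.0477% of all genes were called by edgeR. At an unadjusted p under 0.05 there were 3 members, against 17.5% of all genes. These were Adam9 (log2 fold change 0.92 ± 0.27, FDR = 0.160), Adam5 (1 and 3 counts against 0 and 0, FDR = 0.260) and Adam19, a protease of heart and mesenchyme (log2 fold change -1.95 ± 0.62, FDR = 0.180). Adam19 had 9.30 and 4.18 CPM in Pld6 KO and 1.60 and 1.79 CPM in Dnmt3l KO, while WT was at 4.49 and 1.62 CPM.

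At P0 the question was whether the same genes were already altered in newborn testes, where prospermatogonia are the germ cells. Against WT, edgeR called no member in the Pld6 KO, the Dnmt3l KO or the DKO testes, where 0.00629%, 0% and 0.0126% of the 15901 genes tested were called. At an unadjusted p under 0.05 there were 1, 4 and 2 members, against 5.06%, 12.9% and 7.97% of all genes. DESeq2 called 0, 2 and 1. The filter kept all 12 members from outside the male germ line and 7 of the other 21, namely Adam1a, Adam1b, Adam3, Adam4, Adam5, Adam7 and Adam18.

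The sheddases differed little at P0. Adam9 had 102 and 111 CPM in WT, and all 9 mutant libraries were lower, between 75.4 and 97.9 CPM. Log2 fold changes were -0.26 ± 0.15 for Pld6 KO, -0.20 ± 0.18 for Dnmt3l KO and -0.25 ± 0.16 for DKO, with FDR from 0.622 to 0.963. Adam10 had 149 and 174 CPM in WT, 155 and 182 CPM in Dnmt3l KO, and 140 to 189 CPM in Pld6 KO. Adam17 had 88.6 and 110 CPM in WT and 112 and 93.2 CPM in Dnmt3l KO, overlapping. Adam12 was lower in Dnmt3l KO, at 96.6 and 85.6 CPM against 129 and 160 CPM in WT (log2 fold change -0.67 ± 0.21, FDR = 0.302).

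Adam33, a protease of smooth muscle and mesenchyme, had the largest log2 fold change of the 12 members expressed outside the male germ line in the P0 comparisons. WT libraries held 25 and 28 counts of it (2.12 and 2.35 CPM). In Pld6 KO it had 4.95, 4.45, 4.88 and 12.6 CPM, in Dnmt3l KO 2.37 and 7.11 CPM, and in DKO 12.4, 13.0 and 7.25 CPM. All 9 mutant libraries were above both WT libraries, with Dnmt3l KO replicate 1 only just so. The log2 fold change was 2.27 ± 0.56 in DKO (FDR = 0.352) and 1.57 ± 0.53 in Pld6 KO (FDR = 0.963). In DKO the FDR was 0.0169 in a fit of the compared groups alone and 0.00999 by DESeq2. Summed markers of peritubular and smooth muscle were 673 and 1066 CPM in WT and 1305, 980, 1217 and 1590 CPM in Pld6 KO, in the order of the Adam33 values. They were 803 and 860 CPM in Dnmt3l KO and 991, 1161 and 963 CPM in DKO. Pld6 KO replicate 4 was thus the highest of its group in both, while the DKO libraries with 12.4 and 13.0 CPM of Adam33 had 991 and 1161 CPM of these markers. Their part was not tested.

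Several sperm members at P0 were highest in a single library. Of the 21, 6 had their highest FPKM in Dnmt3l KO replicate 1, among them Adam20 with 1 count and Adam18 by a narrow margin. Of the 12 members expressed outside the male germ line, 0 did. The share of all genes that were highest in this library was not computed, for the members or for the markers below. In Dnmt3l KO replicate 1, Adam5 had 264 counts against 19 to 65 in the other 10 libraries. Adam2 had 90 counts against 1 to 6, Adam32 had 76 against 3 to 13 and Adam3 had 69 against 0 to 15. Adam1a, with 69 counts against 28 to 77, lay within the range of the other libraries, as did Adam1b, Adam4, Adam7 and Adam21. The 21 sperm and male tract members summed to 20.7 FPKM in this library and to 2.37 to 6.75 FPKM in the others. The summed L/Z spermatocyte markers were likewise 275 CPM in it and 61.1 to 125 CPM elsewhere, and 9 of the 10 markers were highest there. Pachytene and later markers summed to 156 CPM against 47.9 to 59.7 CPM, with 6 of 9 highest there. Spermatid markers, at 3.42 CPM, lay within the 2.21 to 16.8 CPM of the other libraries, and Prm2, Tnp2 and Smcp were at 0 in it. The part of these cells' markers in the Adam values was not tested.

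**Figure D4:**
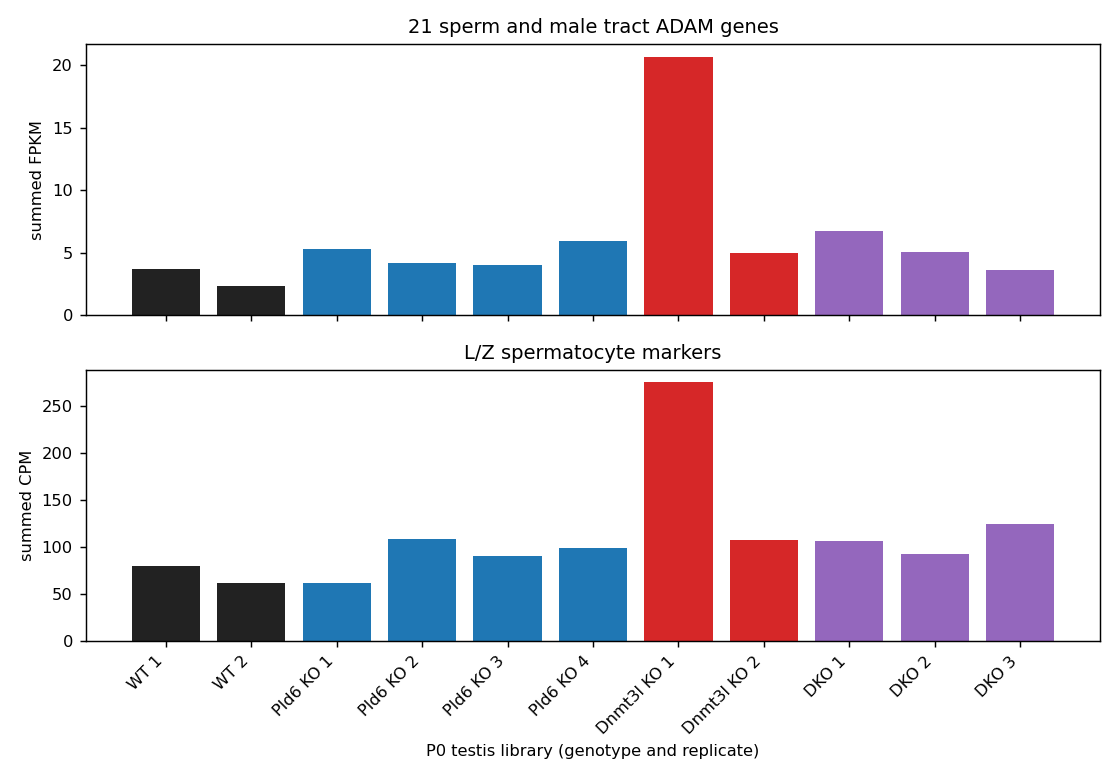
Summed FPKM of the 21 sperm and male tract ADAM genes (upper bars) and summed CPM of the L/Z spermatocyte markers (lower bars) in the 11 P0 libraries, coloured by genotype. Dnmt3l KO replicate 1 is the highest in both, at 20.7 FPKM and 275 CPM.

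Adam5 thus had 23.1 and 3.30 CPM in Dnmt3l KO at P0 against 1.61 and 1.76 CPM in WT. The log2 fold change was 2.96 ± 0.69 (FDR = 0.256), and 0.96 (FDR = 0.651) without Dnmt3l KO replicate 1. For Adam3 it was 4.35 ± 1.08 (FDR = 0.256), and 2.77 (FDR = 0.572) without that library. Adam18, a sperm surface member, had 12 counts in each of the Dnmt3l KO libraries, 1 in each WT library, 0 to 2 in Pld6 KO and 0 to 3 in DKO. Summed counts were 12.4-fold above WT with a counting interval of 3.08 to 108. The log2 fold change of 3.49 ± 1.01 (FDR = 0.279) was 3.48 without Dnmt3l KO replicate 1. Adam18 passed the filter on low counts only through the Dnmt3l KO libraries. A higher value there was thus a condition of its being tested.

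In the DKO, Adam5 had 3.31, 3.79 and 2.72 CPM and Pld6 KO had 2.05 to 4.33 CPM, all above the 1.61 and 1.76 CPM of WT. Adam4, a germ cell member, had 2.35, 0.759 and 0.503 CPM in DKO and 0.0850 and 0.252 CPM in WT (log2 fold change 2.67 ± 0.95, FDR = 0.466). Adam1a overlapped between WT (4.50 and 2.35 CPM) and each mutant group. No member was called between DKO and Pld6 KO, for which 0% of genes were called by edgeR and no member had an unadjusted p under 0.05, against 6.02% of all genes. Between DKO and Dnmt3l KO, where 0.0755% of genes were called, edgeR called 0 members and had 5 at an unadjusted p under 0.05, against 17.8% of all genes, while DESeq2 called 2. The 3 members of the 5 that were lower in the DKO, Adam18, Adam3 and Adam5, had log2 fold changes of -3.43 ± 0.83, -3.29 ± 0.82 and -2.02 ± 0.57 (FDR = 0.0939, 0.0971 and 0.121). Without Dnmt3l KO replicate 1 the value was -0.02 for Adam5 and -1.71 for Adam3. Adam18 had entered the test only through the Dnmt3l KO libraries, as stated above. Non-additivity of the 2 mutations in the DKO, on the log scale, was called for no member by edgeR, with 4 at an unadjusted p under 0.05 against 10.9% of all genes and 1 called by DESeq2, and edgeR called 0% of genes.

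The effect of Dnmt3l loss was then compared between stages in a fit of 14 libraries, in which 20 members passed the filter. The test concerns the difference of the fold changes, and the tissue and the kind of read differ with the stage. It was called for Adam9 (difference of log2 fold changes 1.75 ± 0.31, FDR = 0.0344) and for Adam5 (-11.46 ± 1.69, FDR = 0.0170), 2 of 20 members beside 0.665% of all genes (0.453% higher and 0.212% lower). At an unadjusted p under 0.05 there were 9 members, against 17.2% of all genes. For Adam5 the size rests on a group at 0 counts and is no bound. Without P0 Dnmt3l KO replicate 1, Adam5 kept the call (FDR = 0.0432) and Adam9 lost it (1.66, FDR = 0.146). Leaving out either P0 WT library ended both calls. The other sperm genes of the chromosome 8 run pointed the same way as Adam5 without passing the test. Their FDR was 0.0752 for Adam3, 0.0910 for Adam32 and 0.205 for Adam18. Adam2, on chromosome 14, did so too, at -5.91 (FDR = 0.0855) with DESeq2 size factors in the edgeR fit. Without P0 Dnmt3l KO replicate 1 the differences were -8.41 for Adam3, -2.46 for Adam32, -6.56 for Adam18 and -2.77 for Adam2. Adam3 was at 0 counts in both L/Z Dnmt3l KO libraries and Adam18 had at most 3 counts in every L/Z library. Their sizes are thus no bound either. Adam18 also passed this filter only through the P0 Dnmt3l KO libraries. For the effect of Pld6 loss no member was called, beside 0.0121% of all genes, with 4 members at an unadjusted p under 0.05, against 9.52% of all genes, and 1, Adam5, called by DESeq2.

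**Figure D5:**
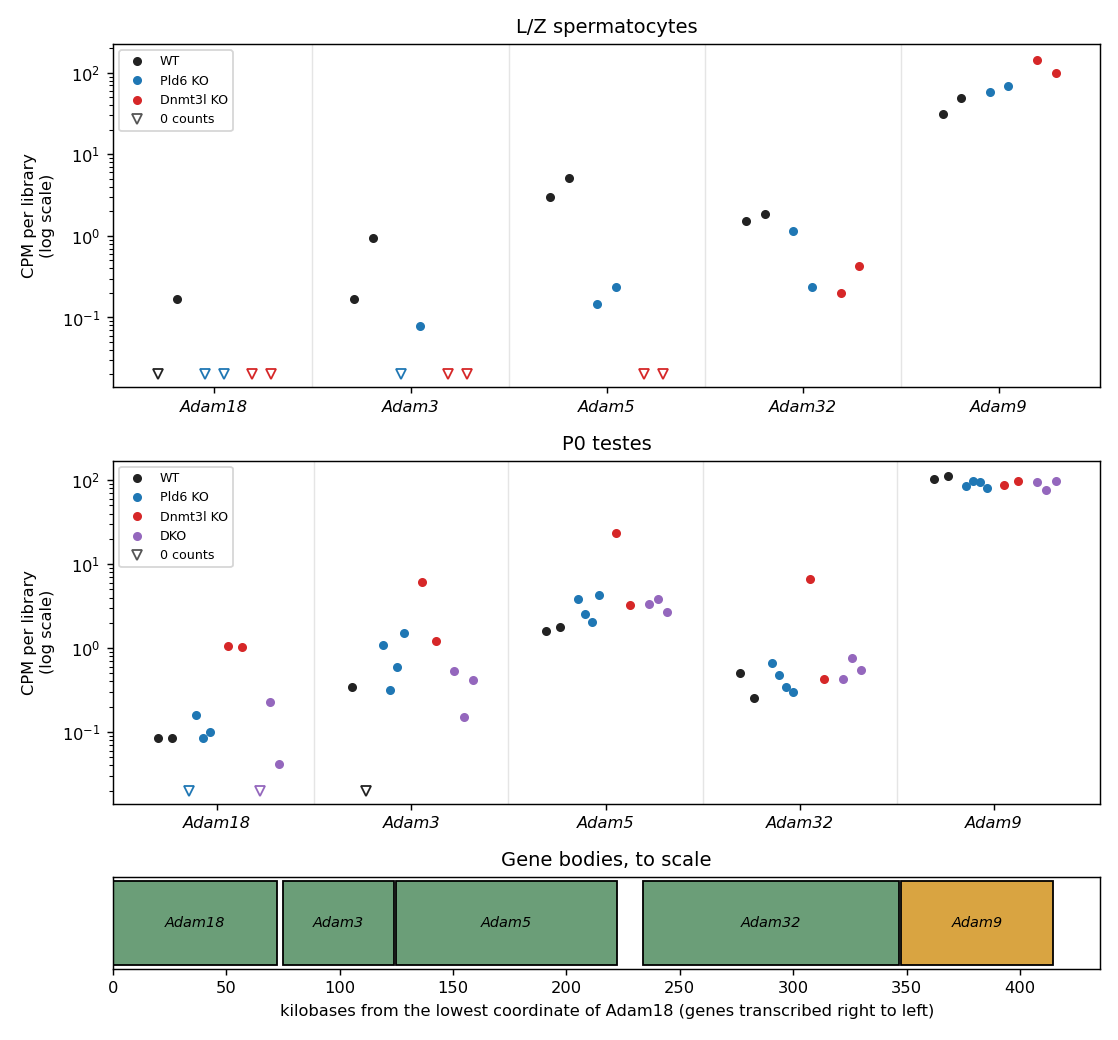
CPM per library (log scale) of the 5 adjoining ADAM genes of chromosome 8 in L/Z spermatocytes (top) and P0 testes (middle), with their gene bodies to scale (bottom, kilobases from Adam18). Open triangles are libraries with 0 counts. At L/Z, Adam9 is higher in both Dnmt3l KO libraries while Adam5 is at 0 in them, and at P0 a single Dnmt3l KO library is high for Adam3, Adam5 and Adam32.

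Genes that act with the ADAM proteins were read from 3 lists. None of their tested genes was called in any of the 11 comparisons by edgeR, while DESeq2 called up to 2 genes of a list in a comparison. Of the chaperones and surface factors needed to mature sperm ADAMs, Tex101 was also an L/Z marker and Clgn a marker of pachytene and later germ cells. In this list 6 of 10 genes were tested at L/Z. In Dnmt3l KO their median log2 fold change was 0.35 beside -0.04 over all genes, with 1 gene at an unadjusted p under 0.05, and in Pld6 KO it was -0.65 beside 0.00, with 2, where 9.17% of all genes had such a p. Between Dnmt3l KO and Pld6 KO the median was 1.00 beside -0.0028, and 4 of the 6 were higher at an unadjusted p under 0.05, against 17.5% of all genes in either direction. The smallest FDR of these was 0.0623, and DESeq2 called 2. In Pld6 KO against WT, the 2 at an unadjusted p under 0.05 were Ly6k and Tex101, which encode surface factors needed for ADAM3. Their log2 fold changes were -1.42 ± 0.36 and -0.95 ± 0.36 (FDR = 0.232 and 0.476). Ly6k alone of these 2 was called by DESeq2 there (FDR = 0.0104). Its value was -0.98 (FDR = 0.613) with the length and GC correction, and -1.95 to -0.57 with a replicate left out. Of 17 partners, inhibitors and convertases of ADAM10 and ADAM17, 15 were tested, and the median in Dnmt3l KO was -0.38. Among them Pcsk7, a proprotein convertase, had a log2 fold change of 0.96 ± 0.22 (FDR = 0.0308), under 2-fold, and Rhbdf2, the iRhom that carries ADAM17 to the surface, had -0.78 ± 0.23 (FDR = 0.0639). Of 22 substrates, 17 were tested at L/Z with a median of -0.09 in Dnmt3l KO. Notch3 had their lowest FDR (-1.48 ± 0.49, FDR = 0.0873, and 0.0404 by DESeq2). Its value was -0.96 (FDR = 0.211) with the length and GC correction and -0.78 (FDR = 0.264) with the factor for Rn45s. With a replicate left out it lay between -2.04 and -0.52. Kitl, the Kit ligand, had -1.40 ± 0.53 (FDR = 0.124). Counts by direction at an unadjusted p under 0.05 in Dnmt3l KO were 2 higher and 4 lower of 15 partners and 0 higher and 4 lower of 17 substrates, beside 26.7% of all genes in either direction.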

How the data were processed

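Reads were mapped by the authors with TopHat2 (mm10, GRCm38) and RefSeq genes quantified with Cuffdiff, versions not given in the sources used here. For each gene and library the deposited tables give an estimated count before scaling, and FPKM as scaled by the authors' Cuffdiff run. Genes not marked OK were excluded, 6 from the L/Z table and 2 from the P0 table. Replicate numbering starts at 0 in the tables and at 1 in the labels, and was matched in ascending order. No group depends on it. P-values measure the spread between libraries.

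The rounded estimated counts were tested with edgeR 4.0.16 under R 4.3.3 (filterByExpr, TMM, glmQLFit, glmQLFTest, 1 fit per stage over every group, FDR under 0.05 and over 2-fold, no fold threshold for additivity) on the whole table, checked on simulated data. CPM, marker sums included, used TMM-scaled library sizes, and single markers were ranked between libraries by counts over total counts. Where a group had at most 3 counts in every library, folds came from summed counts with an exact 95% interval, or from a floor of 3 counts in each library, averaged as CPM, for counting error only. Alternatives used DESeq2 1.42.0, limma 3.58.1 on log2(FPKM + 1) and log2(FPKM + 0.1), other filters, scalings and fits, an offset for GC content and length (loess span 0.3), a factor for Rn45s over 1% and leaving out each replicate. Sequences were read with Python 3.11.15 and Biopython 1.88. Proteins were translated from GENCODE M21 transcripts.

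Members, lists and markers were chosen with earlier results of these data known. Values are given per library for members called in any comparison, the 4 highest per class and stage in WT, and Adam1a, Adam1b, Adam2, Adam3, Adam10 and Adam17. Adam11, Adam19, Adam33, Adam4, Adam18 and the listed partners named were chosen after their values were seen.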

Additional observations from a re-analysis of the deposited data

Results flagged for a closer look

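In P0 Pld6 KO testes, replicate 4 had 12.6 CPM of Adam33 while the nearest of the other 3 replicates had 4.95 CPM, a gap of 0.938 of the group's range, which is over Dixon's critical value for 4 samples. Of 19 members given this outlier test 1 was picked out, and chance alone picks about 1 group in 20. The effect of Dnmt3l loss differed between L/Z spermatocytes and P0 testes for Adam5, by -11.5 on the log2 scale, and for Adam9, by 1.75. In both cases the difference of the fold changes was itself tested and passed the threshold. The tissue sampled and the read type cannot be told apart from stage in these values.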

How the results depend on the processing

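Of the fold changes of members recomputed under the alternatives, 1 changed sign, that of Adam15 in Dnmt3l KO at L/Z, which was 0.21 with the GC and length offset. Members called for the stage difference of Dnmt3l loss numbered 2 in the report, 5 by DESeq2 and 0 to 5 when each replicate was left out. The 5 by DESeq2 were Adam2, Adam3, Adam32, Adam5 and Adam9. The upper end of the range came without P0 Dnmt3l KO replicate 2, where that group was 1 library, replicate 1, high in meiotic markers. The count was 0 without L/Z Dnmt3l KO replicate 1 or either P0 WT library, and 1 without L/Z WT replicate 1, P0 Dnmt3l KO replicate 1 or P0 Pld6 KO replicate 2. For Dnmt3l KO against WT at L/Z, 2 members became 0 to 3 with replicates left out, 0 without L/Z Dnmt3l KO replicate 1 and 1 without L/Z WT replicate 1. Where the report has 0 members, DESeq2 called 1 for Pld6 KO against WT at L/Z and for its stage difference, 2 for P0 Dnmt3l KO against WT, 1 for DKO against WT, 2 for DKO against Dnmt3l KO and 1 for the departure from additivity. A factor for Rn45s gave 2 for Pld6 KO at L/Z, no filter gave 1 there and 1 for DKO against Dnmt3l KO, and the compared groups alone gave 1 for DKO against WT. Without P0 Dnmt3l KO replicate 2, that group was replicate 1 alone, so calls in that fit rest on 1 library and are not counted here. The log2 fold change of Adam5 was then 3.74 for P0 Dnmt3l KO against WT and -2.82 for DKO against Dnmt3l KO. Of the values of single members under these alternatives, 783 kept their direction and side of the threshold, 26 passed it and 12 no longer did.

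Of the related lists, with 0 genes called in the report, the sperm maturation list gained up to 2 calls between the L/Z mutants, in 8 of 17 alternatives, and 3 in Dnmt3l KO against WT without L/Z WT replicate 2. The partners gained up to 2 in Dnmt3l KO against WT, in 7 of 17, and the substrates up to 2, in 4 of 17.

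Over all genes, calls for Dnmt3l KO at L/Z were 802, and 307 with the GC and length offset, 530 by limma on log2(FPKM + 1) and 1 to 1139 with a replicate left out. For Pld6 KO at L/Z they were 33, and 101 with the Rn45s factor, 90 by DESeq2, 8 by limma on log2(FPKM + 1) and 1 in the compared groups alone. Replicate numbers did not pair the samples across all groups. Correlations of same-numbered deviations were 0.485 between WT and Pld6 KO at L/Z, where replicate 1 of both groups was rich in Rn45s (8.27% and 8.06%). They were -0.144 and -0.135 with Dnmt3l KO at L/Z, and -0.332 to 0.271 at P0. With the replicate block, calls over all genes were 912 for Dnmt3l KO and 24 for Pld6 KO at L/Z, and Adam9 (1.60, FDR = 0.0190) and Adam5 (FDR = 0.0151) stayed called in Dnmt3l KO. Of the sperm and male tract members, 12 of 21 had at most 3 counts in every L/Z library, too few for a difference between groups to be detectable.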
